A study of Mus musculus with 8 samples.

Results

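The lysosome genes described here are 34 mouse genes, picked by symbol from the 23337 genes of the table of normalised reads: 9 proteases, 6 glycosidases, 5 lipid handlers and cofactors, 5 membrane proteins, 6 proton pump subunits, and a set of 3 made of 2 regulators and an autophagy receptor. All 34 symbols were rows of the table, and 33 reached an average of 10 normalised reads in the 6 compared libraries, the minimum for testing. None of these 33 passed the test between libraries with and without tamoxifen. Their levels instead split the tamoxifen libraries: 26 of the 33 were lower in tamoxifen_1 and tamoxifen_2 than in every library without tamoxifen (22.7% of all genes were), and 22 were highest of all in tamoxifen_3 (21.5% of all genes were). The macrophage markers of the libraries moved with them.

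Bulk RNA was sequenced from endothelial sorts of whole E15.5 mouse embryos, made by flow cytometry. All mice carried Cdh5-CreERT2(PAC);Rosa26fsTRAP, in which a Cre recombinase that needs tamoxifen is driven by the endothelial Cdh5 gene and a Cre-dependent reporter sits at Rosa26, although the genotype field of each sample reads wild type. One group came from pregnant mice given tamoxifen by gavage at E12.5 and the other from mice without the gavage, so the drug and the activation of Cre cannot be told apart. The labels list 4 samples in each group and do not say whether they were separate litters, so the spread behind each p-value is that of these samples alone and may be technical. The header of the table is 1 field short, and only columns 3 to 5 (no_tamoxifen_1 to no_tamoxifen_3) and 7 to 9 (tamoxifen_1 to tamoxifen_3) have the same group however it is placed. These 6 libraries were compared, and columns 6 and 10 are given apart.

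Lysosomes are acidic organelles that break down proteins, sugars, lipids and nucleic acids delivered by endocytosis, phagocytosis and autophagy. The vacuolar proton pump acidifies them, hydrolases with low pH optima do the digestion, and membrane proteins export the products. Many lysosome genes are targets of TFEB and TFE3, transcription factors held in the cytoplasm by mTORC1 kinase signalling and released to the nucleus by starvation or lysosomal stress, which bind E-box sequences of the CLEAR type. Macrophages, which digest what they engulf, are among the cells richest in lysosomal transcripts. Tamoxifen is a cationic amphiphilic drug, a class that collects in lysosomes.

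To show the E-boxes, the 250 bases before the start site were searched in the RefSeq promoters of GRCm38.p6, which matched 29 of the 34 genes. Ctsb, Ctsh, Npc1, Atp6v1b2 and Atp6v1h had no entry. The motif CACGTG, which reads the same on both strands, was in 9 of the 29 (31.0%), against 6.86% of the 27025 genes in the same promoter set. The 9 were Ctsa, Ctsd, Ctsl, Lgmn, Gla, Glb1, Lamp1, Mcoln1 and Atp6v1a. The longer form TCACGTGA, which contains the shorter one, was in 5 of 29 (17.2%), against 0.907% of genes. The longest form searched, which extends TCACGTGA by a base at each end, was in 0 of the 29, against 0.270% of genes. With a share this low over all genes, 0 of 29 cannot tell the list from other genes. The windows below show CACGTG in a membrane protein (4 copies), 3 enzymes, the lysosomal calcium channel and a proton pump subunit. Capitals mark CACGTG, and each sequence is read 5′ to 3′ on the strand of the gene.
Lamp1, chr8:13159086-13159160, plus strand: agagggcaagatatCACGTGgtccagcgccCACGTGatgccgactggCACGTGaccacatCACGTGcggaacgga
Glb1, chr9:114401008-114401075, plus strand: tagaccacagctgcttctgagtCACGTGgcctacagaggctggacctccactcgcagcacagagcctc
Lgmn, chr12:102439103-102439177, minus strand: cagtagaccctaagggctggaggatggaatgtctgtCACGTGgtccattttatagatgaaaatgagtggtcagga
Atp6v1a, chr16:44139330-44139404, minus strand: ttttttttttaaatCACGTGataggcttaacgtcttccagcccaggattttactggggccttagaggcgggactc
Mcoln1, chr8:3500462-3500491, plus strand: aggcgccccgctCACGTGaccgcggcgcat
Ctsd, chr7:142387908-142387937, minus strand: tcgcccgcgtctCACGTGacccgttgaggg
The first 4 windows held no base of an annotated exon. Those of Lamp1 and Glb1 lay before the annotated gene, and those of Lgmn and Atp6v1a inside its span but outside its exons. The windows of Mcoln1 and Ctsd lay inside the first exon of an annotated transcript of the same gene that starts further upstream. A match of these letters is a description of the sequence and not a measured binding site. The median log2 fold change with tamoxifen was -0.13 for the 9 genes with the motif and -0.18 for the 19 matched and tested genes without it, so the values of those with an E-box lay close to the values of those without.

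The 6 libraries held 12212472 to 19908404 reads in genes, of which 29.4% to 38.7% fell on the ribosomal RNA precursor Rn45s, and 1 read was worth 0.701 to 1.08 normalised reads. The cells were labelled endothelial, and the endothelial markers Cdh5 and Pecam1 were present at 1978 to 5201 and 1279 to 2879 normalised reads. Macrophage transcripts were also abundant. The receptor gene Csf1r was at 11218, 9605 and 11809 normalised reads without tamoxifen and at 8124, 7464 and 12229 with it. The complement gene C1qa was at 2885, 2351 and 2676 without and at 1940, 2065 and 3078 with tamoxifen, and the surface receptor gene Adgre1 was at 2932, 2978 and 2977 and at 1938, 1872 and 3329. All 3 were lowest in tamoxifen_1 and tamoxifen_2 and highest in tamoxifen_3. Hspa1a and Hspa1b, the heat shock genes that lead the calls over the whole table, did not share that order: Hspa1a was at 975 to 1226 normalised reads without tamoxifen and at 24606 to 45753 with it, and Hspa1b at 1091 to 1618 and at 44218 to 78418.

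**Figure D1:**
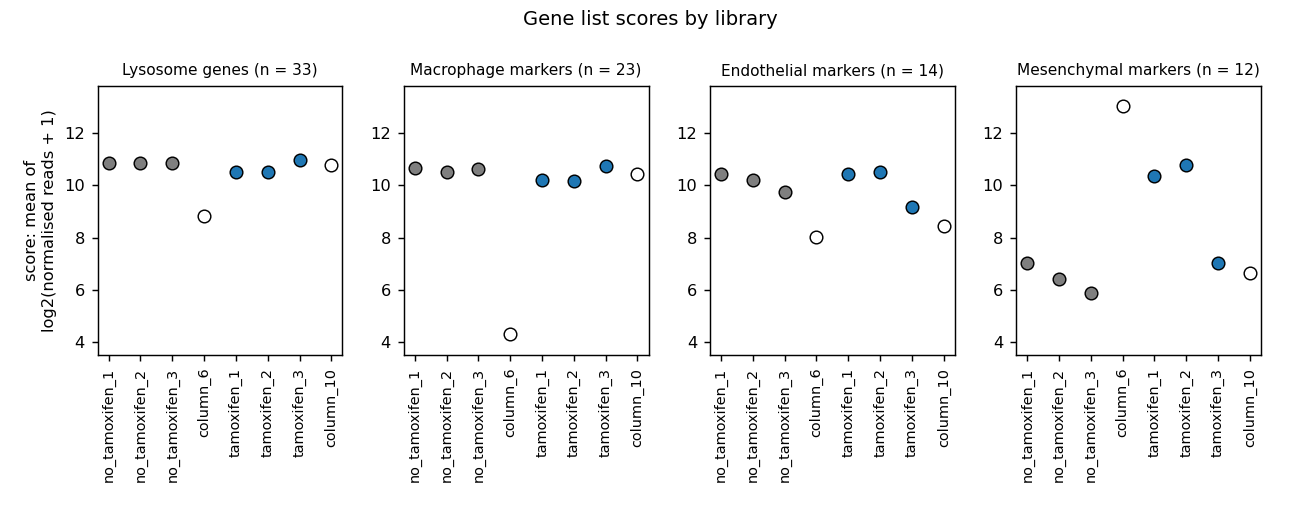
Score of 4 gene lists in each library, the mean of log2(normalised reads + 1) over the genes of the list (y axis), with 1 point per library. Grey points are libraries without tamoxifen, blue points libraries with it, and open points columns 6 and 10. The lysosome genes and the macrophage markers are both lower in tamoxifen_1 and tamoxifen_2 than in the other 4 compared libraries, and the mesenchymal markers are higher there.

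The levels of the lysosome genes spanned a wide range. Per kilobase of the principal transcript, the sphingolipid activator precursor gene Psap had the highest level without tamoxifen, at 5762 normalised reads per kilobase. It was followed by the aspartic protease gene Ctsd at 3791, the cysteine protease gene Ctsb at 3469 and the asparaginyl endopeptidase gene Lgmn at 2962. The lowest per kilobase were the cholesterol exporter gene Npc1 at 195, the regulator genes Tfe3 at 186 and Tfeb at 103, the calcium channel gene Mcoln1 at 116 and the glycoprotein gene Gpnmb at 49.5. Several soluble proteases thus stood at the upper end of the list and the regulators at the lower end. On GRCm38, Lgmn lies on chromosome 12 at 102394084 to 102439813 on the minus strand, Neu1 on chromosome 17 at 34931253 to 34935953, Mcoln1 on chromosome 8 at 3500457 to 3515232 and Gpnmb on chromosome 6 at 49036546 to 49070929, all 3 on the plus strand. The 34th gene, Atp6v0c, which encodes the proteolipid ring of the pump, was at 0 in 4 of the 6 libraries, at 1.52 normalised reads in no_tamoxifen_3 and at 0.701 in tamoxifen_3. Of its transcript, 32.4% of 50-base stretches also occur elsewhere in the annotated transcripts, mostly in a pseudogene copy, so its level is uncertain and it was not tested.

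Between the groups, limma on log2(normalised reads + 1), two-sided and with Benjamini-Hochberg adjustment over all 13480 genes tested, called 0 of the 33 lysosome genes higher and 0 lower. Over all genes 0.0445% were called higher and 0% lower. Before adjustment 2 of the 33 genes (Npc1 and Gpnmb) had a p under 0.05 with a lower level and 0 with a higher one, where all genes gave 4.12% and 4.89%. edgeR and DESeq2 on the recovered whole reads also called 0 of the 33 past the adjusted threshold, against 0.0371% of all genes higher and 0% lower in edgeR, and 1.83% higher and 0.208% lower in DESeq2. Unadjusted p under 0.05 was reached in edgeR by 1 gene lower (Npc1) and 1 higher (Neu1), where 3.09% and 6.85% of all genes did. In DESeq2 3 were lower (Npc1, Gpnmb and Ctss) and 0 higher, where 3.26% and 6.18% of all genes did. Of the 33 genes, 28 had a negative log2 fold change, against 53.5% of all genes. Their median was -0.22 against -0.02 over all genes. Fold changes on this scale understate the change of low genes. In bulk samples, fewer cells of a type and less RNA per cell cannot be told apart.

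**Figure D2:**
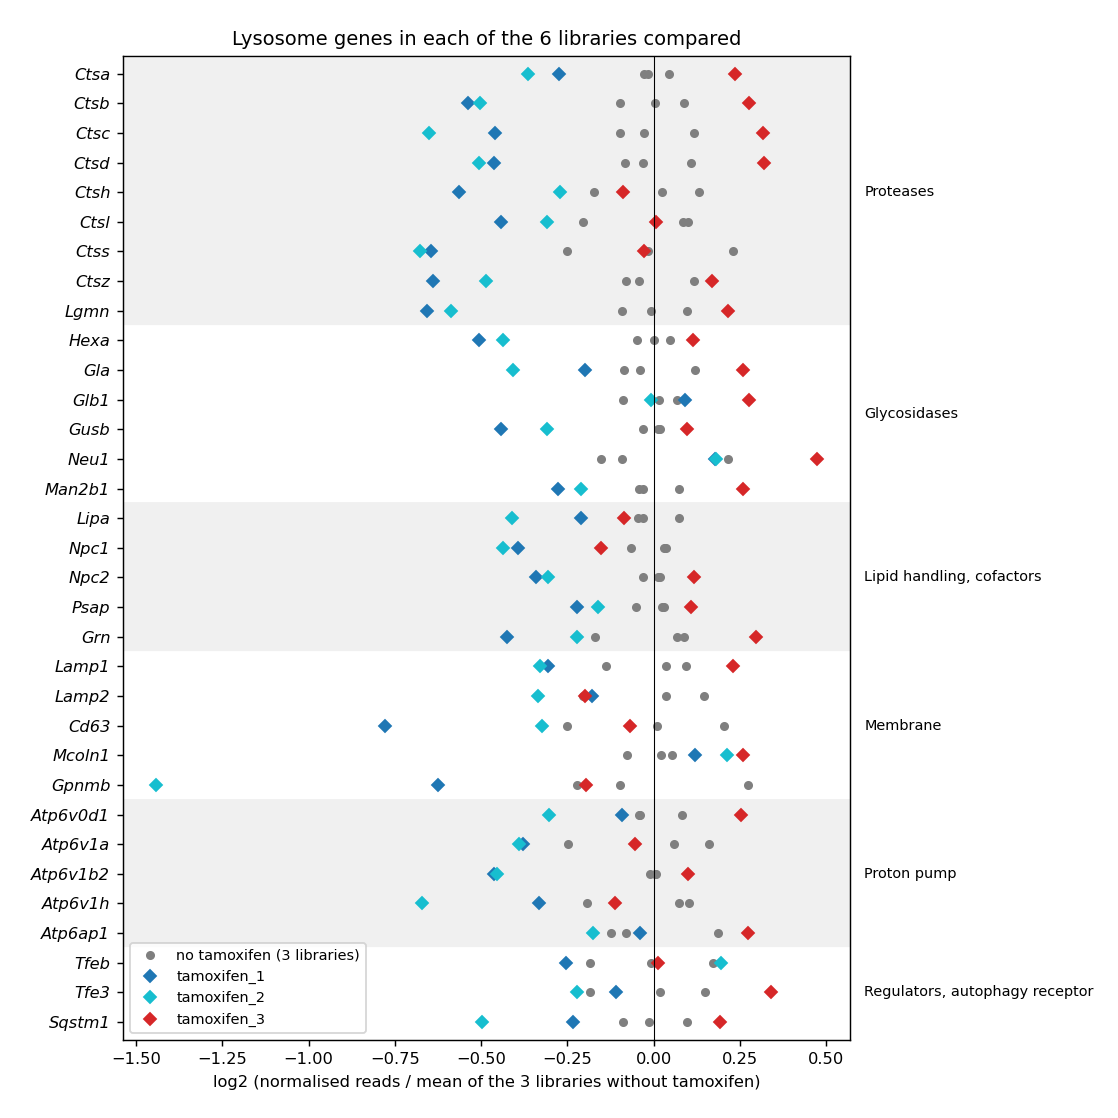
Level of each of the 33 tested lysosome genes in the 6 libraries compared, as log2 of the normalised reads over the mean of the 3 libraries without tamoxifen (x axis), grouped by role. In 26 of the 33 rows the blue and light blue points of tamoxifen_1 and tamoxifen_2 lie left of every grey point, and in 22 rows the red point of tamoxifen_3 lies right of every other point.

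The 9 proteases all had negative log2 fold changes, with a median of -0.26, and none passed the test. Ctsd, the main aspartic protease of the lysosome, was at 7890, 7615 and 8688 normalised reads without tamoxifen and at 5846, 5681 and 10058 with it. tamoxifen_1 and tamoxifen_2 were below all 3 libraries without tamoxifen and tamoxifen_3 above all 3, so the groups overlapped (8064 ± 557 against 7195 ± 2481, SD, n = 3 each). Its log2 fold change was -0.21 ± 0.21 (SE, limma adjusted p = 0.776). Reads of Ctsd may be shared with the annotated gene Gm49369, which covers 34.4% of its exons on the same strand. Lgmn, which activates other proteases by cleavage after asparagine, was at 6296, 5528 and 5860 without and at 3739, 3923 and 6848 with tamoxifen. Ctsb, an abundant cysteine protease, was at 17472, 15389 and 16506 without and at 11343, 11618 and 19935 with tamoxifen. Both had the same order of libraries as Ctsd. Ctsc, the dipeptidyl peptidase that activates granule proteases of immune cells, was at 3576, 3407 and 3953 without and at 2648, 2321 and 4544 with it. Ctss, a cysteine protease of antigen-presenting cells, was at 2212, 2624 and 1880 without and at 1431, 1401 and 2193 with tamoxifen, and its tamoxifen_3 value lay inside the range of the libraries without the drug. Ctss had the lowest fold change of the proteases, -0.44 ± 0.19 (SE, limma adjusted p = 0.554). Ctsh, an aminopeptidase, and Ctsl, a cysteine endopeptidase, were like Ctss in order, while Ctsa, the protective protein of other hydrolases, and Ctsz, a carboxypeptidase, were like Ctsd. In counts, 9 of 9 proteases were below every library without tamoxifen in tamoxifen_1 and tamoxifen_2, where 22.7% of all genes were, and 6 of 9 also had tamoxifen_3 above all 3, where 5.80% of all genes did.

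Among the 6 glycosidases, 4 had negative and 2 positive log2 fold changes (median -0.09), and none passed the test. Hexa, the alpha subunit of beta-hexosaminidase, was at 2845, 2663 and 2754 normalised reads without tamoxifen and at 1939, 2036 and 2980 with it. Its log2 fold change was -0.28 ± 0.16 (SE, limma adjusted p = 0.625), and its groups overlapped through tamoxifen_3 alone. The sialidase gene Neu1 had the highest fold change of all 33 genes. It was at 533, 555 and 687 without and at 669, 671 and 821 with tamoxifen, a log2 fold change of 0.29 ± 0.14 (SE, limma adjusted p = 0.580). no_tamoxifen_3 lay above tamoxifen_1 and tamoxifen_2, so the groups overlapped. Glb1, the lysosomal beta-galactosidase, was at 682, 613 and 658 without and at 694, 648 and 788 with tamoxifen (0.12 ± 0.12, SE, limma adjusted p = 0.771). Gusb, the beta-glucuronidase, Gla, the alpha-galactosidase, and Man2b1, the alpha-mannosidase, had the order seen for Hexa, with log2 fold changes of -0.22, -0.11 and -0.08. tamoxifen_3 was the highest of the 6 libraries in 6 of 6 glycosidases, as it was for 21.5% of all genes.

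All 5 lipid handlers and cofactors had negative log2 fold changes (median -0.18), and none passed the test. Npc1, which exports cholesterol from the lysosome, had the lowest p of the 33 genes. It was at 1039, 973 and 1043 normalised reads without tamoxifen and at 776, 752 and 915 with it, so every tamoxifen library lay below every library without (1018 ± 39.1 against 814 ± 88.1, SD, n = 3 each). Its log2 fold change was -0.33 ± 0.11 (SE, limma unadjusted p = 0.0187, adjusted p = 0.475). Lipa, the acid lipase that frees cholesterol for Npc1, was also without overlap, at 804, 865 and 797 without and 711, 619 and 774 with tamoxifen (-0.23 ± 0.12, SE, limma adjusted p = 0.581). Npc1 and Lipa were the 2 genes of 33 with every tamoxifen library lower, where 7.62% of all genes were. Psap, the gene with the highest level per kilobase, was at 15612, 15552 and 14764 without and 13116, 13677 and 16489 with tamoxifen (-0.09 ± 0.13, SE, limma adjusted p = 0.851). Npc2, the soluble partner of Npc1, was at 2180, 2249 and 2257 without and 1760, 1802 and 2416 with it. Grn, the progranulin precursor, was at 5514, 4675 and 5586 without and 3920, 4511 and 6454 with it. For Psap, Npc2 and Grn tamoxifen_3 was the highest library and the other tamoxifen libraries the lowest.

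Of the 5 membrane proteins, 4 had negative log2 fold changes and 1 a positive one (median -0.23), and none passed the test. Lamp1, a major glycoprotein of the lysosome membrane, was at 4820, 4270 and 5014 normalised reads without tamoxifen and at 3802, 3743 and 5517 with it. Lamp2, its relative, was at 2323, 2509 and 1968 without and at 2001, 1797 and 1975 with it. Lamp1 had tamoxifen_3 as its highest library and Lamp2 did not. The tetraspanin Cd63, a marker of late endosomes, was at 3065, 3509 and 2560 without and at 1777, 2433 and 2902 with tamoxifen (-0.38 ± 0.19, SE, limma adjusted p = 0.584), and 36.5% of the 50-base stretches of its transcript are shared with a pseudogene. Mcoln1, the calcium channel of the lysosome membrane, was at 244, 228 and 250 without and at 261, 278 and 288 with it. Each of its tamoxifen libraries was higher than each without (240 ± 11.2 against 276 ± 13.4, SD, n = 3 each), the only such case among the 33, where 6.24% of all genes were. Its log2 fold change was 0.20 ± 0.13 (SE, limma adjusted p = 0.652). Gpnmb, a glycoprotein of phagocytes and melanocytes, was at 157, 221 and 171 without and at 119, 67.5 and 160 with tamoxifen. It had the largest fold change of the list, -0.73 ± 0.31 (SE, limma unadjusted p = 0.0429, adjusted p = 0.537), and its groups overlapped by tamoxifen_3 and no_tamoxifen_1.

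The proton pump genes had a median log2 fold change of -0.26, with 4 of the 5 tested subunits negative and none past the threshold. Atp6v1b2, a nucleotide-binding subunit of the cytoplasmic sector, was at 2791, 2786 and 2759 normalised reads without tamoxifen and at 2018, 2027 and 2979 with it (-0.27 ± 0.15, SE, limma adjusted p = 0.616). The libraries without the drug lay within an SD of 17.2, while the tamoxifen libraries had an SD of 552. Atp6v1h, a regulatory subunit of that sector, was at 770, 785 and 641 without and at 581, 460 and 677 with it (-0.37 ± 0.16, SE, limma adjusted p = 0.551). Its groups overlapped because tamoxifen_3 exceeded no_tamoxifen_3. The catalytic subunit Atp6v1a and the membrane-sector subunit Atp6v0d1 had log2 fold changes of -0.26 and -0.05, and the accessory subunit Atp6ap1 had 0.03.

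Transcripts of the regulators lay close to each other in the 2 groups. Tfeb was at 236, 208 and 267 normalised reads without tamoxifen and at 199, 272 and 239 with it, a log2 fold change of -0.01 ± 0.17 (SE, limma adjusted p = 0.993) with a 95% interval of -0.39 to 0.38. Tfe3 was at 618, 537 and 676 without and at 566, 523 and 772 with it, 0.01 ± 0.17 (SE, limma adjusted p = 0.992) with an interval of -0.37 to 0.39. These intervals do not show that the levels were equal, and transcript level does not measure the release of either factor to the nucleus. Tfeb did not have the library order of the enzymes: tamoxifen_2 was its highest library. Sqstm1, the p62 receptor that carries ubiquitin-tagged cargo to autophagosomes, was at 5115, 4493 and 4741 without and at 4066, 3385 and 5462 with it (-0.18 ± 0.17, SE, limma adjusted p = 0.767), which is the order of the enzymes. Reads of Sqstm1 may include those of Mrnip, which overlaps 17.3% of its exons on the other strand.

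The spread among the tamoxifen libraries was the main pattern of the list. The median lysosome gene stood at 79.0% of its mean without tamoxifen in tamoxifen_1, at 79.3% in tamoxifen_2 and at 112% in tamoxifen_3. For all genes these medians were 96.8%, 95.8% and 100.6%. By role, the median protease was at 68.9%, 70.6% and 116%, the median glycosidase at 84.8%, 83.6% and 120%, and the median proton pump gene at 79.4%, 76.3% and 107%. In all, 26 of 33 genes were below every library without tamoxifen in both tamoxifen_1 and tamoxifen_2, where 22.7% of all genes were. tamoxifen_3 was also above all 3 in 17 of 33, where 5.80% of all genes had that order. These counts describe an order seen in the data and were not tested.

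The macrophage markers had the same order of libraries. Over 23 markers, the summed level was 68592, 59839 and 65486 normalised reads without tamoxifen and 48402, 46441 and 72974 with it, and none of the 23 was at 0 in any of the 6 libraries. The median marker stood at 72.2% of its mean without tamoxifen in tamoxifen_1, 69.6% in tamoxifen_2 and 112% in tamoxifen_3. Of the 23 markers, 19 were below every library without tamoxifen in tamoxifen_1 and tamoxifen_2, where 22.7% of all genes were. In 10 of them tamoxifen_3 was also above every library without tamoxifen, where 5.80% of all genes had that order. Between the groups 21 of the 23 had a negative log2 fold change (median -0.26), and 0 passed the test. Other cell type markers moved between the libraries too. The summed level of 12 mesenchymal markers was 2386 to 5045 without tamoxifen, 61417 in tamoxifen_1, 94915 in tamoxifen_2 and 5276 in tamoxifen_3. That of 14 endothelial markers was 15073 to 24217 without tamoxifen, 24970, 25798 and 10199 with it, and no marker of either list was at 0 in the 6 libraries. The 8 cartilage markers summed to 700 to 1041 without tamoxifen and to 18306, 15687 and 903 with it. Of other blood cells, the median neutrophil and mast cell markers were also high in tamoxifen_3. The median of 3 erythroid markers stood at 75.75% of its mean without tamoxifen there, and that of 5 megakaryocyte markers at 94.3%. By sum, tamoxifen_3 was highest in mast cell (40966) and megakaryocyte (1841) markers. Neutrophil markers summed to less there (71988) than in no_tamoxifen_3 (85517). The median of 8 neutrophil markers stood at 81.5%, 66.7% and 144.5% of its mean without tamoxifen in tamoxifen_1, tamoxifen_2 and tamoxifen_3, and that of 6 mast cell markers at 87.6%, 111% and 157%. tamoxifen_3 was the highest library for 4 of the 8 neutrophil and 5 of the 6 mast cell markers, where 21.5% of all genes had that order. tamoxifen_3, the highest library for the lysosome enzymes, was thus the highest in summed macrophage markers and the lowest in summed endothelial markers. The part of these cell types in the lysosome values was not tested.

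When the macrophage score of each library was added to the model as a covariate, 18 of the 33 lysosome genes had a positive and 15 a negative log2 fold change, and the median moved from -0.22 to 0.025. The median protease moved from -0.26 to 0.01 and the median glycosidase from -0.09 to 0.11. The median membrane protein, which was Lamp2 in both fits, was -0.23 before and -0.22 after. The other membrane proteins moved further: Lamp1 from -0.13 to 0.11, Cd63 from -0.38 to -0.23, Gpnmb from -0.73 to -0.43 and Mcoln1 from 0.20 to 0.24. Npc1 was at -0.21 ± 0.13, Lgmn at 0.01 ± 0.13 and Neu1 at 0.41 ± 0.15 in that fit (SE). None of the 33 passed in it, where 0.445% of all genes were called higher and 0.171% lower. With the mesenchymal score as the covariate, 24 of the 33 were positive, with a median of 0.23, and none passed, where 1.01% of all genes were called higher and 3.89% lower. The direction of the list as a whole therefore differed between the fits with and without these scores. The scores differed between the groups as well. The macrophage score was 10.5 to 10.7 without tamoxifen and 10.2, 10.2 and 10.7 with it. The mesenchymal score was 5.86 to 7.01 without tamoxifen and 10.4, 10.8 and 7.04 with it. With 6 libraries these fits can separate the group from the scores only poorly.

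Leaving out tamoxifen_3 changed the count of calls. Without it, limma called 13 of the 33 lysosome genes lower and 0 higher, where 3.48% of all genes were lower and 7.32% higher. At p under 0.05 before adjustment the counts were 24 lower and 0 higher, where all genes gave 11.5% and 12.7%. The 13 were the proteases Ctsb, Ctsc, Ctsd, Ctss, Ctsz and Lgmn, the glycosidases Hexa and Gusb, the cholesterol exporter Npc1, the membrane proteins Cd63 and Gpnmb, and the pump subunits Atp6v1b2 and Atp6v1h. The lowest adjusted p in that setting was that of Lgmn, at -0.62 ± 0.12 (SE, limma adjusted p = 0.00209, and 0.00209 to 0.992 over its alternatives). Gpnmb was at -1.01 ± 0.25 (SE, limma adjusted p = 0.0149, and 0.0149 to 0.992 over its alternatives). Tfeb at -0.02 and Tfe3 at -0.16 did not pass in that setting. Of the 23 macrophage markers 15 were called lower and 1 higher there, among them Csf1r at -0.48 and Adgre1 at -0.64, while Cd163 was higher at 1.34. All 12 mesenchymal markers were called higher. Leaving out any of the other 5 libraries gave 0 calls among the 33. All genes then gave 0.0222%, 0.0148% and 0.0148% higher without no_tamoxifen_1, no_tamoxifen_2 or no_tamoxifen_3, and 0.0374% and 0.0299% without tamoxifen_1 or tamoxifen_2, with 0% lower each time. The remaining settings also called 0 of the list. Over all genes, no filter on low values gave 0.0317% higher and a mean of at least 100 gave 0.0626%, names over the last 8 value columns gave 0.0283% and over the first 8 gave 0%, each with 0% lower. Adding column 10 to the tamoxifen group gave 0.0596% higher and 0.00745% lower.

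**Figure D3:**
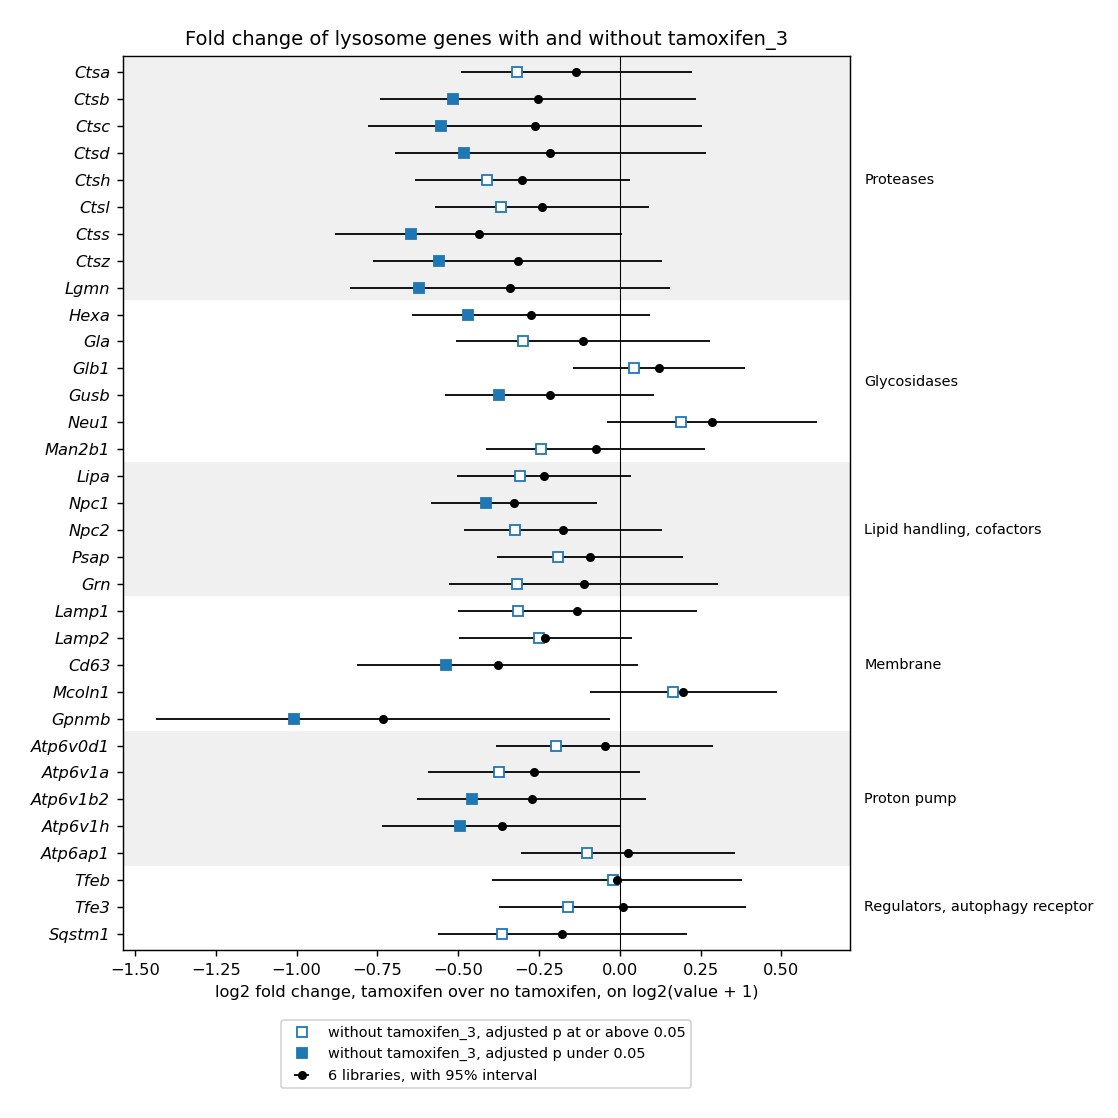
Log2 fold change of each tested lysosome gene, tamoxifen over no tamoxifen (x axis), from limma. Black points with 95% intervals use all 6 libraries. Squares leave out tamoxifen_3, filled where the adjusted p was under 0.05, which holds for 13 of the 33 genes.

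The other genes of the pathway gave the same count. Of 35 other genes, mostly of lysosomal hydrolases, 0 passed in either direction, with a median log2 fold change of -0.08. The acid ceramidase gene Asah1 at -0.37 and the sulfatase-activating enzyme gene Sumf1 at -0.28 had the lowest p below 0, and the collagenolytic protease gene Ctsk was at 0.88. Ctsk was at 86.1 and 114 normalised reads in tamoxifen_1 and tamoxifen_2, at 29.5 in tamoxifen_3, and at 28.2 to 42.1 without tamoxifen. It was thus high in tamoxifen_1 and tamoxifen_2, where the listed proteases were low. Its tamoxifen_3 value lay inside the range without tamoxifen. Of 28 other lysosomal membrane genes 26 were tested, 0 passed, and the median was -0.12. The sialic acid transporter gene Slc17a5 was at -0.41 and the enzyme receptor gene Scarb2 at -0.20, with Mfsd8 at 0.55 and the peptide transporter gene Abcb9 at 0.41 on the other side. Of 16 other proton pump genes 12 were tested, 0 passed, and 11 of the 12 were negative with a median of -0.26. Atp6ap2, the renin receptor, was at -0.35, Atp6v0e at -0.28, and the single positive gene, Atp6v0a2, at 0.04.

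Sorting, signalling and autophagy genes gave no calls either. Of 20 genes of mannose 6-phosphate tagging and lysosomal sorting 0 passed (median -0.07). The receptors that carry tagged enzymes went apart in value, with M6pr at -0.29 ± 0.12 and Igf2r at 0.48 ± 0.30 (SE). Igf2r was at 2039, 1966 and 1388 normalised reads without tamoxifen and at 3042, 3353 and 1476 with it, so it was high in the libraries where the enzymes were low. The tethering subunit gene Vps41 was at -0.28 and Gnptg, a subunit of the tagging enzyme, at 0.09. Of 20 genes of the MiT/TFE family and of mTORC1 control 0 passed (median -0.16). Tfec, a relative of Tfeb, was at 524, 622 and 586 without and at 374, 334 and 530 with tamoxifen (-0.51 ± 0.18, SE, limma adjusted p = 0.475). Lamtor2, a scaffold that holds mTORC1 at the lysosome, was at -0.45 ± 0.15 (SE, limma adjusted p = 0.475), while the mTORC1 inhibitor gene Tsc2 was at 0.20 and the kinase gene Mtor at 0.16. Of 25 autophagy genes 0 passed (median -0.03), with Rb1cc1 at -0.28, Uvrag at -0.16, Map1lc3a at 0.54 and Wipi2 at 0.19. Without tamoxifen_3 these 6 lists gave 3, 5, 3, 4, 5 and 0 calls in the order given here, 18 lower and 2 higher in all, where 3.48% of all genes were lower and 7.32% higher. The counts of 3 of 35 genes in the hydrolase list and 0 of 25 autophagy genes were below the sum of these shares. The higher ones were Ctsk and Igf2r.

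Column 6 is a library without a replicate. With the names over the last 8 value columns it belongs to the group without tamoxifen, and with them over the first 8 to the tamoxifen group. It held 8695745 reads in genes and few macrophage transcripts: the 23 macrophage markers summed to 1141 normalised reads, and the median marker stood at 1.27% of its mean in the 3 libraries without tamoxifen. Csf1r was at 151 normalised reads and Adgre1 at 4.07. Transcripts of neutrophils and mast cells were low there too. The 8 neutrophil markers summed to 716, against 48556 to 85517 without tamoxifen, and the 6 mast cell markers to 97.6, against 20968 to 31189. The 3 erythroid markers instead summed to 87647, against 80.7 to 81.0. The 5 megakaryocyte markers were mixed. Their median was 237% of the mean without tamoxifen, but their sum was 806, against 1128 to 1720. Its mesenchymal markers summed to 486826, and its endothelial markers stood at a median of 21.4%. Hspa1a was at 488 and Hspa1b at 924 normalised reads there. The median lysosome gene stood at 26.6% of its mean without tamoxifen in column 6, against 89.6% for all genes. Of the 33 genes, 14 were at least 4-fold below that mean, where 10.8% of all genes and 22 of the 23 macrophage markers were. The part of any of these cell types in the values of column 6 was not tested.

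The lysosome genes differed widely from each other in column 6. Ctss was at 30.5 normalised reads there (1.36% of its mean without tamoxifen), Ctsc at 59.0 (1.62%) and Lgmn at 220 (3.73%). Ctss and Ctsc were close to the median macrophage marker, at 1.27%. These markers ranged from 0.137% to 44.5%, but nearly all of them were at least 4-fold below their means without tamoxifen. A smaller share of the 33 lysosome genes was. Hexa was at 350 (12.7%), Man2b1 at 629 (13.5%) and Grn at 722 (13.7%). All 6 glycosidases were at 34.1% or less, and 5 of the 6 were at least 4-fold below. At the other end, Mcoln1 was at 266 normalised reads (110.8%), Npc1 at 922 (90.5%), Atp6ap1 at 877 (74.8%), Cd63 at 2189 (71.9%) and Lamp2 at 1328 (58.6%). Mcoln1 was the single gene of the 33 above its mean without tamoxifen, where 43.9% of all genes were. The roles overlapped in this library. The proteases reached up to 52.6% in Ctsl and 38.6% in Ctsb, and the membrane genes went down to 22.6% in Lamp1 and 26.6% in Gpnmb. Reads of Ctsl may be shared with annotated genes on both strands, the largest overlap covering 26.85% of its exons. Of the 5 tested pump genes, Atp6ap1 was the highest, and Atp6v1b2 was at 20.1%, Atp6v1a at 32.3%, Atp6v0d1 at 41.0% and Atp6v1h at 43.4%. Tfeb was at 91.5 (38.6%), Tfe3 at 289 (47.3%) and Sqstm1 at 2169 (45.3%).

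**Figure D4:**
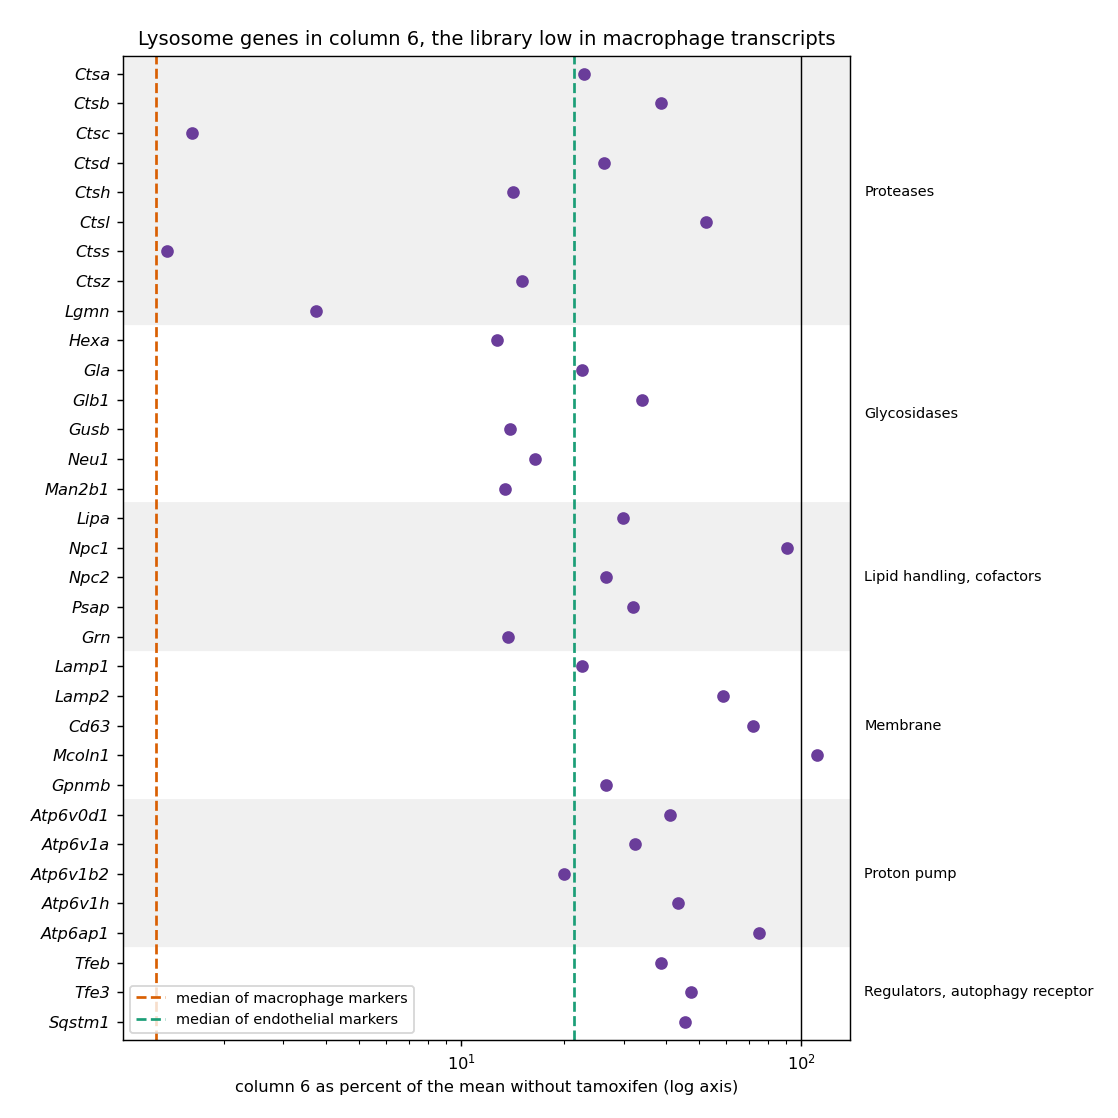
Level of each of the 33 tested lysosome genes in column 6 as a percent of its mean in the 3 libraries without tamoxifen (x axis, log scale), with dashed lines at the medians of the macrophage markers (1.27%) and of the endothelial markers (21.4%). Ctss, Ctsc and Lgmn lie nearest to the macrophage line, and Npc1 and Mcoln1 nearest to the black line at 100%.

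Column 10, which is a tamoxifen library when the names are placed over the last 8 value columns and has no name in the other placement, held 22593195 reads in genes. Of its lysosome genes, 29 of the 33 were within the range of the 6 compared libraries, where 67.4% of all genes were. For 17 of the 33 that range reached beyond the libraries without tamoxifen on both sides, so this count alone does not show a resemblance. Ctsd was at 8602 normalised reads in column 10, Lgmn at 5102, Hexa at 2712, Npc1 at 898, Mcoln1 at 225 and Tfeb at 188. The macrophage markers summed to 58338, between tamoxifen_1 and the lowest library without tamoxifen. The mesenchymal markers summed to 3750, inside the range of the libraries without tamoxifen, and the endothelial markers to 6479, below all 6 libraries. Hspa1a was at 32334 and Hspa1b at 56354 normalised reads in column 10. The median lysosome gene stood at 94.5% of its mean without tamoxifen, against 98.9% for all genes.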

How the data were processed

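The deposited values are a signal unit, reads per gene normalised by the authors; per the submitters' processing notes the tools were DESeq2, HTSeq 0.11.2 and STAR, and the builds given are mm10 and hg38, with no role for either. The strand setting of the counting is not given in the sources used. Within a tolerance of 0.001 reads, 100% of the values in each library came out as whole reads, so whole reads were recovered for count tests; 1 value column, the first, was not used, so the header placement over the first 8 value columns was fitted without it.

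Genes averaging 10 or more normalised reads in the 6 libraries entered limma 3.58.1 (R 4.3.3, mean-variance trend, pseudocount 1, group only) and Benjamini-Hochberg adjustment at 0.05 over 13480 genes. edgeR 4.0.16 (TMM) and DESeq2 1.42.0 on the recovered reads, other pseudocounts and filters, marker scores as covariates, other header placements and leaving out each library were alternatives. The members and lists were chosen with earlier results of these data known. All members are named; every library is given for the 3 of lowest p in each direction, the highest per kilobase in each role, Tfeb and Tfe3, and for further members chosen after their values were seen. Of the other lists, the text names the 2 genes with the lowest p on each side, except 1 that is not reported here. Of 280 listed symbols 279 matched, 7 of them by a RefSeq synonym. Overlaps, lengths and shared 50-base stretches come from GENCODE M21 (GRCm38), promoters from RefSeq (GRCm38.p6).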

Additional observations from a re-analysis of the deposited data

How the results depend on the processing

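Among the 33 tested lysosome genes the count past the threshold was 0 with all 6 libraries and 0 to 13 when 1 library was left out in turn; the 13 came without tamoxifen_3, and the cause was not tested. The median log2 fold change, -0.22 with all 6 libraries, was -0.36 to -0.11 over these leave-outs. It was 0.025 with the macrophage score as covariate, 0.23 with the mesenchymal score, 0.32 when the names of the header stood over the last 8 values and -0.61 when they stood over the first 8, all with 0 genes past the threshold; both placements bring in column 6. These 4 settings changed the sign of 13, 19, 23 and 4 genes. Column 10 added to the tamoxifen group gave -0.19. The 6 pathway lists gave 0 calls with all 6 libraries, 1 with the mesenchymal score and 0 to 20 over the leave-outs. Pseudocounts of 0.5 and 10, filters on low values, edgeR, DESeq2 and equal totals without Rn45s gave 0 calls in the list and in the pathway lists and medians of -0.22 to -0.17. With the replicate block the count was again 0 and the median -0.22, while calls over all genes went from 6 higher and 0 lower to 20 and 1. Same-numbered libraries deviated together with correlations of 0.20, 0.04 and 0.34, and not every library correlated best with its own number. Deviations taken within groups of 3 are tied to each other, so these correlations cannot settle whether libraries were paired. The labels give only a replicate number. Gpnmb and Tfeb had the lowest mean levels of the 33 genes in the 6 libraries, 149 and 237 normalised reads. The SE of their log2 fold changes was 0.31 and 0.17, against 0.21 for the abundant Ctsb. The part of read depth in these errors was not tested.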
